A study of Mus musculus with 35 samples.

Results

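The Igf2bp, Lin28 and Hmga genes belong to a group often called heterochronic, because their products mark the early state of many developing tissues and decline as these tissues mature. Igf2bp1, Igf2bp2 and Igf2bp3 encode RNA-binding proteins that hold and stabilise mRNAs, Lin28a and Lin28b encode RNA-binding proteins that block the maturation of let-7 microRNAs, and Hmga1 and Hmga2 encode small architectural proteins that bind AT-rich DNA. Several of them, including Lin28b, Hmga2 and Igf2bp1, are known let-7 targets, so that Lin28 proteins and let-7 oppose each other. The 7 genes were taken as a list, of 15897 protein-coding genes that could be placed on the peak lists and 21627 in the gene table. Igf2bp1 was chosen by its measured H3K4me3 peaks, which its start loses by postnatal day (P) 21, so its H3K4me3 values are a description and were not tested.

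ChIP-Seq was carried out on whole mouse retina. Brg1, the ATPase of the SWI/SNF chromatin remodelling complex, was precipitated through its FLAG tag from P0 retinae of Brg1-FLAG mice (1 library). H3K4me3, a mark of promoters, H3K27Ac, a mark of active promoters and enhancers, and H3K27me3, the mark laid down by Polycomb complexes, were profiled in wild-type animals with 2 libraries per mark at each of P0, P14 and P21. At P12 there was 1 wild-type library of H3K4me3 and 1 of H3K27Ac, with 1 and 2 libraries from Brg1-deficient retinae. H3K27me3 at P12 was profiled with 2 wild-type libraries and 1 Brg1-deficient library using another antibody (AB3) than at the other stages (AB1), so P12 is not compared with those stages for this mark. The Brg1-deficient mice were Chx10-Cre; Brg1 Lox/Lox, in which Cre is made in a mosaic pattern by retinal progenitor cells, so each retina also held cells that kept Brg1. The paper states that mice with small eyes, whose Cre expression was wider, were preferred for ChIP-Seq to limit wild-type cells. The Brg1-deficient animals were thus picked in part by this trait. The paper calls the replicates of the histone marks biological. The labels do not say whether replicates came from separate animals, and p-values therefore measure only the spread between these libraries.

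Each library is represented by the peaks that the authors called in it. The height of a peak is its deposited fold enrichment over background, and the height at a start is that of the highest peak within 2 kb of it, or 0 where the library lists none. H3K27me3 was deposited as broad islands, for which the length is given. Heights are printed as deposited unless called scaled, whereas the tests used heights scaled between libraries. At P21 the median H3K4me3 height over marked starts was 62.0 in replicate 1 and 23.8 in replicate 2. Read depth was unknown, and a weak peak can be missing from a shallow list. At P0, P14 and P21, replicate 1 of wild-type H3K27Ac held between 17433 and 18718 peaks, whereas replicate 2 held between 29304 and 50005. The wild-type P12 library held 47404. As retina is a mixed tissue, fewer cells with a mark and less of the mark per cell cannot be told apart. The rod photoreceptor genes placed here (4 of 7 on the list) summed to H3K4me3 heights of 10.6 and 12.1 at P0 and 281 and 117 at P21. The progenitor and cell cycle genes (6 of 12 placed) summed to H3K27Ac heights of 63.3 and 76.1 at P0, 11.6 and 47.1 at P14, and 10.4 and 20.3 at P21. Their H3K4me3 heights summed to 248 and 265 at P0 and 188 and 105 at P21. For the 3 bipolar cell genes the H3K4me3 sums were 41.1 and 40.4 at P0 and 41.3 and 15.8 at P21. These sums join opposite changes. At P21 limma called Trpm1 higher and Vsx1 lower (0.844% and 5.51% of all starts tested were called in these directions). For the 2 placed Muller glia genes the sums were 62.9 and 43.9 at P0 and 68.2 and 21.2 at P21. In both P0 libraries and in replicate 2 of P21, only 1 of these 2 genes had a peak. Summed H3K4me3 heights of the 3 ganglion cell genes were 80.3 and 132 at P0 and 37.1 and 26.1 at P21, and those of the 3 amacrine and horizontal cell genes were 76.0 and 72.4 at P0 and 40.1 and 11.7 at P21. The part of these shifts in marker genes in the values below was not tested. No wild-type library listed an H3K4me3 or H3K27Ac peak at the 10 placed starts of pigment epithelium, endothelial, microglial, lens and muscle genes, whereas 1 of 2 liver genes had an H3K4me3 peak in every wild-type library, of 15.8 to 51.7.

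To show where the marks were read, the 250 bases before the start are given for the 5 genes whose marks changed between P0 and P21 and which had an entry in the RefSeq promoter table (GRCm38.p6). CG pairs are in capitals, since H3K4me3 and H3K27me3 domains in mammals often lie over CG-rich starts. The start of Igf2bp1 was taken as the upstream end of the gene in the gene table.
Igf2bp2, minus strand, chr16:22163300-22163549: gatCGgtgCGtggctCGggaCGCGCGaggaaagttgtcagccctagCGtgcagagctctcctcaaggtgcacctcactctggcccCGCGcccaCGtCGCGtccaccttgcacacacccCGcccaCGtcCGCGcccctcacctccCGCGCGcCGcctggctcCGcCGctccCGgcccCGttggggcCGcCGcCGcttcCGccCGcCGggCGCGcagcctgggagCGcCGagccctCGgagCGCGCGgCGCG
Igf2bp3, minus strand, chr6:49214955-49215204: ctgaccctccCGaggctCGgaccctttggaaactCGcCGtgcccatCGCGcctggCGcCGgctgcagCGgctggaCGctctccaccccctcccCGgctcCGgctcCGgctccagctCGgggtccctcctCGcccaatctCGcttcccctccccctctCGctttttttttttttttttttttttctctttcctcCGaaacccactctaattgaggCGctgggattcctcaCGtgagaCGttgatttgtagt
Lin28a, minus strand, chr4:134018817-134019066: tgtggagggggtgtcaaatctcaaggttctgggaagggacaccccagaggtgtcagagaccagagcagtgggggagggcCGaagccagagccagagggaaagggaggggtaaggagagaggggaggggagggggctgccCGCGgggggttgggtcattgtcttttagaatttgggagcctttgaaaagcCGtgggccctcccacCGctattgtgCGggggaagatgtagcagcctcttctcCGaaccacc
Lin28b, minus strand, chr10:45470202-45470451: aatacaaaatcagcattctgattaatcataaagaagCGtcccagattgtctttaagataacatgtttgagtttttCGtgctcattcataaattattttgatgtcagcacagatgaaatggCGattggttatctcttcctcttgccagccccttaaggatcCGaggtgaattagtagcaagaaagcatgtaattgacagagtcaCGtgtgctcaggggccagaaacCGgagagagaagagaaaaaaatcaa
Hmga2, minus strand, chr10:120476470-120476719: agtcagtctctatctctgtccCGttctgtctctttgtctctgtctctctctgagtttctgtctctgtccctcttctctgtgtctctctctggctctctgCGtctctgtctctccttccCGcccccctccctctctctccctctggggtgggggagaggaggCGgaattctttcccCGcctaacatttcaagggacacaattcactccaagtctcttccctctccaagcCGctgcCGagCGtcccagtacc
Igf2bp2 held 40 CG pairs, more than 98.4% of the 19343 promoters in the table, whose median was 10. Igf2bp3 held 21 CG pairs, Hmga2 held 8, Lin28a held 7 and Lin28b held 6. Hmga1, which is not printed, held 34. The Lin28b stretch was also the poorest in G and C, at 39.2% against a median of 55.6% over all promoters. On either strand, GGGCGG occurred 2 times in Igf2bp2, 3 times in Hmga1 and 1 time in Hmga2, and 43.2% of all promoters held it. CACGTG occurred 1 time in Igf2bp3 and 1 time in Lin28b, and 6.72% of all promoters held it. CCAAT also occurred 1 time in each of these 2 promoters, against 35.4% of all promoters, and TATAAA was found in none of the 6 against 11.7%.

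At P0 all 7 starts carried H3K4me3 in both wild-type libraries, as did 63.3% of all placed starts. They then split into genes that lost most of the mark, genes that kept it and 1 gene, Lin28a, with a low level throughout. At the Igf2bp1 start the H3K4me3 height was 45.3 and 43.5 at P0, 5.74 and 6.93 at P14, and 5.47 and 0 at P21. All P0 values lay above all later ones. The share of all starts with such an order of stages, here and for the genes below, was not counted. The peak itself was 4902 and 5473 bp long at P0, longer than 99.3% and 99.2% of the H3K4me3 peaks at starts. At P14 only separate short peaks of 349 to 488 bp were left around this start. Long P0 peaks were not particular to Igf2bp1. Those of Hmga1 (4501 and 4692 bp) and Hmga2 (4454 and 4542 bp) were longer than at least 98.0% of such peaks. For Igf2bp2 and Igf2bp3 the share was at least 94.6%, and for Lin28a and Lin28b at most 43.8%.

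At Hmga2 the H3K4me3 height was 49.8 and 46.2 at P0, 17.8 and 13.2 at P14, and 17.0 and 7.27 at P21. It had a peak in every library, and the P0 values did not overlap those of the later stages. On the log2(scaled height + pseudocount) scale it fell by 1.16 at P14 (SE 0.26, limma adjusted p = 0.0404) and fell by 1.57 at P21 (SE 0.26, limma adjusted p = 0.00442). Over all 10191 starts tested, 1.77% were called at P14 (1.23% lower and 0.54% higher) and 6.36% at P21 (5.51% lower and 0.844% higher). Both comparisons share the P0 libraries. The P14 call was lost when any 1 of the 6 libraries was left out (adjusted p from limma between 0.0734 and 0.449), and the P21 call was lost without either P0 library or either P21 library (0.0505 to 0.283). It was also lost at both stages without scaling between libraries (0.742 and 0.207).

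Lin28b had an H3K4me3 peak of 18.7 and 25.2 at its listed start at P0 and no peak there in any P14 or P21 library. It entered the test only through its P0 peaks, so it had to differ, and no fold is given against stages listed at 0. Its limma adjusted p was 0.00242 at P14 and 0.00125 at P21. Both calls were lost without either P0 library (adjusted p from limma between 0.209 and 0.449), and the P14 call was lost without scaling (0.0556). Of all placed starts, 1.12% were likewise marked in both P0 libraries and in no P14 library, and 1.06% in no P21 library.

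Igf2bp3 stood between these groups. Its H3K4me3 height was 46.0 and 31.9 at P0, 25.4 and 29.2 at P14, and 29.7 and 9.48 at P21. The P21 libraries lay below the P0 libraries, but the difference of -0.92 on the log2 scale (SE 0.27) missed the threshold (limma adjusted p = 0.0583). Igf2bp2 kept the mark, with 60.4 and 30.2 at P0, 44.2 and 43.6 at P14, and 59.6 and 18.5 at P21. As deposited, the P0 replicates and the P21 replicates each lay on both sides of the P14 values. After scaling, this held for P0 only, and both P21 heights (35.0 and 28.8) were below both P14 heights (48.8 and 46.2). The differences from P0 of 0.16 at P14 and -0.32 at P21 were not called (limma adjusted p = 0.851 and 0.690).

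Hmga1 carried a tall H3K4me3 peak at every stage, with 40.1 and 36.2 at P0, 56.9 and 72.3 at P14, and 60.1 and 31.7 at P21. After scaling, the order of the P21 replicates was reversed, with heights of 35.3 and 49.5. Both P14 libraries were above both P0 libraries, with a difference of 0.80 on the log2 scale (SE 0.27, limma adjusted p = 0.170). Lin28a had the lowest heights at P0, 5.90 and 6.25, above at most 2.41% of the marked starts of either library. Its height was 10.4 and 10.9 at P14 and 16.9 and 10.4 at P21. All later values were above both P0 values, and the difference of 0.61 at P21 was not called (SE 0.27, limma adjusted p = 0.227).

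**Figure D1:**
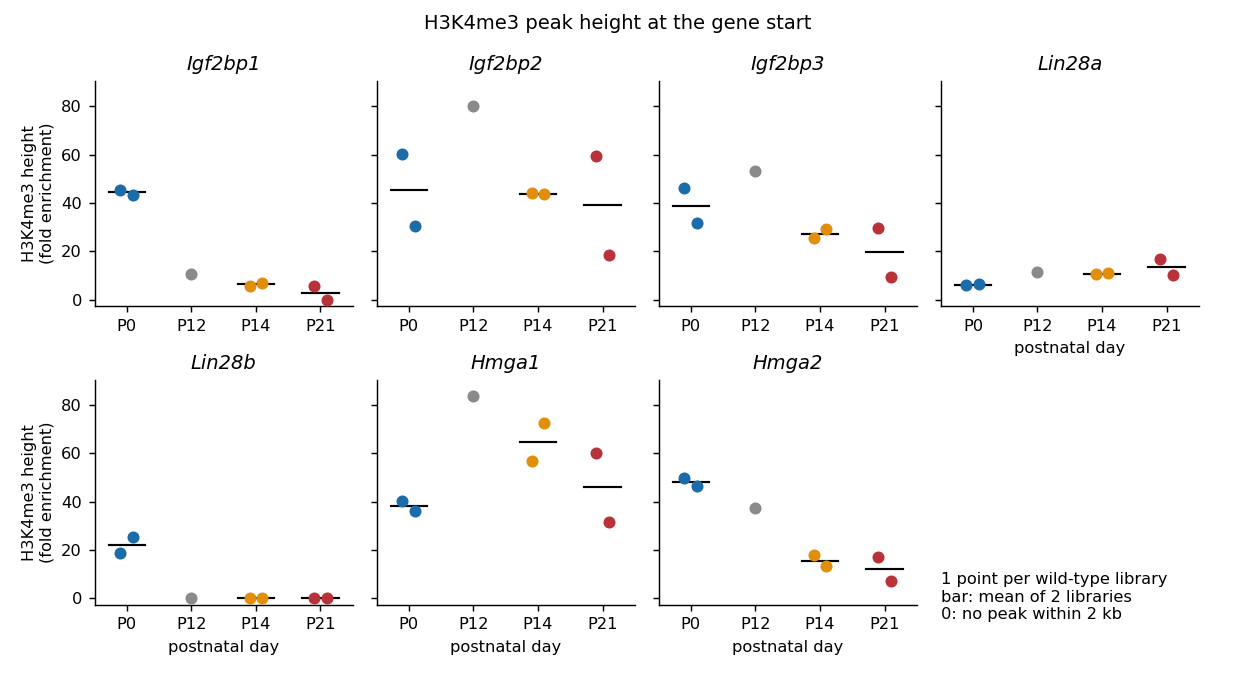
H3K4me3 height (fold enrichment as deposited, not scaled between libraries, linear axis) of the highest peak within 2 kb of each gene start in wild-type libraries by postnatal day. Points are libraries and bars are means of 2 libraries. Igf2bp1, Lin28b and Hmga2 are highest at P0, with Lin28b listed at 0 from P12 on, whereas Igf2bp2 and Hmga1 stay above 18 in every library.

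H3K27Ac at the starts followed a related division. It was found in both P0 libraries at 5 starts, those of Igf2bp1, Igf2bp2, Igf2bp3, Hmga1 and Hmga2, against 50.7% of all placed starts. At Igf2bp1 the H3K27Ac height was 11.3 and 10.4 at P0, and no P12, P14 or P21 library had a peak within 2 kb. Hmga2 had low peaks of 4.45 and 6.21 at P0 and none later. Loss of H3K27Ac from both P0 libraries to no P21 library was seen at 1.89% of placed starts, and at 0.648% for P14. Both genes entered the H3K27Ac test only through P0, so they had to differ, and neither was called at P21 (limma adjusted p = 0.208 for Igf2bp1 and 0.275 for Hmga2).

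At Igf2bp2 the H3K27Ac height was 6.12 and 13.8 at P0, 0 and 9.49 at P14, and 0 and 6.62 at P21. At Igf2bp3 it was 9.66 and 8.21 at P0, 0 and 7.28 at P14, and 0 and 2.29 at P21. In both genes the library listed at 0 was replicate 1, the one with the shorter list of peaks. The part of list length in these zeros was not tested. The last value of Igf2bp3 was above only 0.0901% of the marked starts of that library. Neither gene was called at P21 (limma adjusted p = 0.619 for Igf2bp2 and 0.415 for Igf2bp3).

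Hmga1 was the gene with high H3K27Ac at all stages. Its height was 18.0 and 12.7 at P0, 24.4 and 37.5 at P14, and 13.9 and 12.2 at P21. At P14 these were above 98.8% and 99.6% of the marked starts of each library. Lin28a moved in the other direction from Igf2bp1 and Hmga2. No P0 library listed an H3K27Ac peak at its start, whereas P14 had 0 and 7.10, P21 had 4.91 and 9.44 and the P12 library had 7.07. A gain from no P0 library to both P21 libraries was seen at 0.648% of placed starts, and at 0.591% for P14, where none of the 7 genes met it. As Lin28a entered the test only through later peaks, it had to differ, and it was not called at P21 (limma adjusted p = 0.272). Lin28b had no H3K27Ac peak at its listed start in any library. Over all 9346 starts, 0 were called by limma at P14 and 0 at P21 (0% of those tested in both comparisons), with 703 and 968 at an unadjusted p under 0.05.

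**Figure D2:**
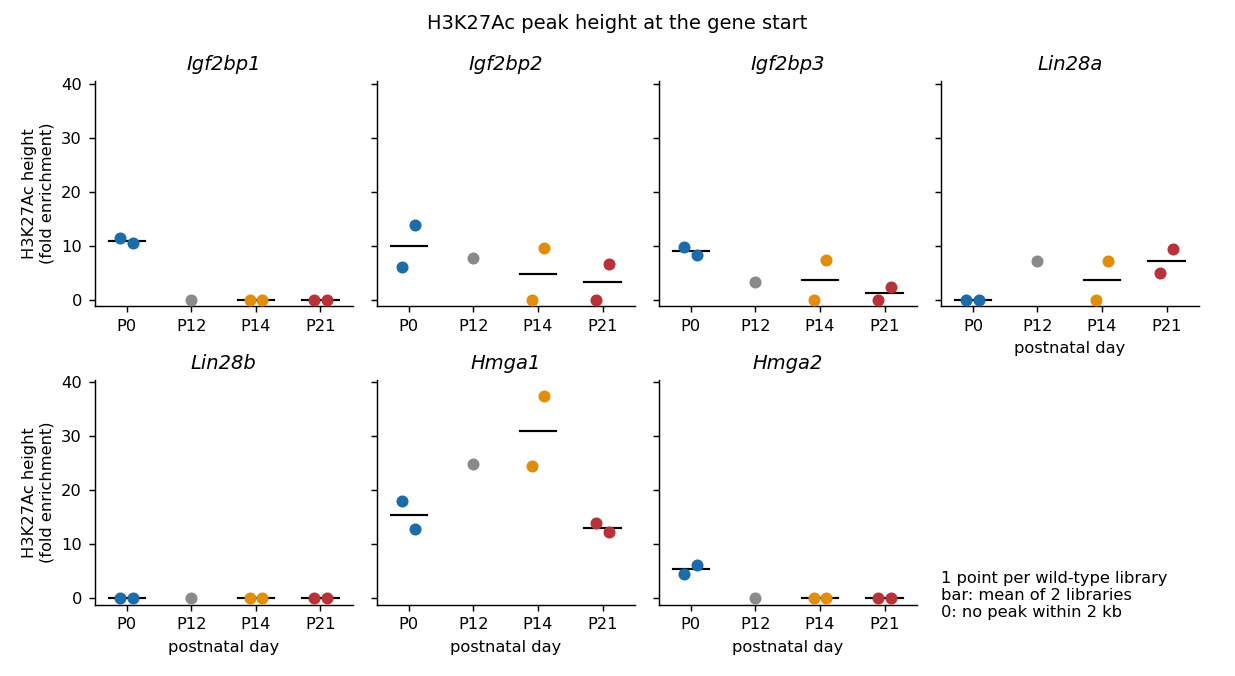
H3K27Ac height (fold enrichment, linear axis) of the highest peak within 2 kb of each gene start in wild-type libraries by postnatal day. Points are libraries and bars are means of 2 libraries. Igf2bp1 and Hmga2 have peaks only at P0, Lin28a only after P0, and Hmga1 at every stage, with 37.5 the highest value.

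H3K27me3 islands appeared, grew or were lost at 5 of the 7 starts; islands were compared by presence and length, without a test. At P0 an island lay within 2 kb of the start in both libraries for 4 genes, Igf2bp1, Lin28a, Lin28b and Hmga2 (20.8% of all placed starts). At P14 all 7 genes had one (19.5% of all starts), and at P21 the number was 5 (20.8% of all starts), without Lin28a and Hmga1. These counts were the same when either library was used alone.

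Igf2bp2 and Igf2bp3 had no island at the start at P0 and had one in every later library. At Igf2bp3 the island was 17400 and 17800 bp long at P14 and 19800 and 20000 bp at P21, and it covered the whole window around the start. At P0 short islands of 1200 to 4400 bp lay further upstream of Igf2bp3, beyond the 2 kb window, so that with a 5 kb window Igf2bp3 counted as having an island in both P0 libraries (25.4% of all starts). At Igf2bp2 the islands were shorter, 9800 and 6400 bp at P14 and 6400 and 5600 bp at P21. A change from no island in either P0 library to an island in both P21 libraries was found at 3.24% of placed starts, and for P14 at 2.78%. Both genes belonged to the 5831 starts that carried H3K4me3 and H3K27Ac without H3K27me3 at P0, of which 266 (1.67% of the 15897 placed starts) had an island in both P21 libraries.

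At Igf2bp1 the island grew. Its length was 7200 and 7200 bp at P0, 23800 and 34800 bp at P14, and 22600 and 25800 bp at P21. Every later island was at least 2-fold longer than both P0 islands, as for 2.75% of the 3313 starts with an island in both P0 libraries at P21 and 3.56% at P14. The P0 islands lay on the upstream side and covered 35.5% and 30.5% of the 4 kb around the start, and the later islands covered 100%. Over all starts the median island length was 7600 and 6000 bp at P0 and 7200 and 6000 bp at P21.

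Lin28a changed in the opposite direction. Its island was 16800 and 14400 bp at P0 and 3600 and 11400 bp at P14, and neither P21 library had an island at the start. Of all placed starts, 3.79% lost the island in this way, and 2.67% between P0 and P14, which none of the 7 did. Of the 603 starts that lost the island by P21, 22 also gained H3K27Ac (0.138% of placed genes), Lin28a among them. This combination matches the changes of Lin28a itself, so the count is a description and not a test. Hmga1 had small islands of 1200 and 2200 bp at P14 and none at P0 or P21.

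Lin28b and Hmga2 kept their islands. At Lin28b the length was 13400 and 9000 bp at P0, 12000 and 12400 bp at P14, and 13000 and 12400 bp at P21. At Hmga2 it was 8000 and 9000 bp at P0, 9800 and 14200 bp at P14, and 7200 and 9400 bp at P21. Island lists differed in size, with 12188 and 20743 islands at P0, 15995 and 30996 at P14, and 19245 and 27940 at P21, and replicate 2 had the longer list at each stage.

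**Figure D3:**
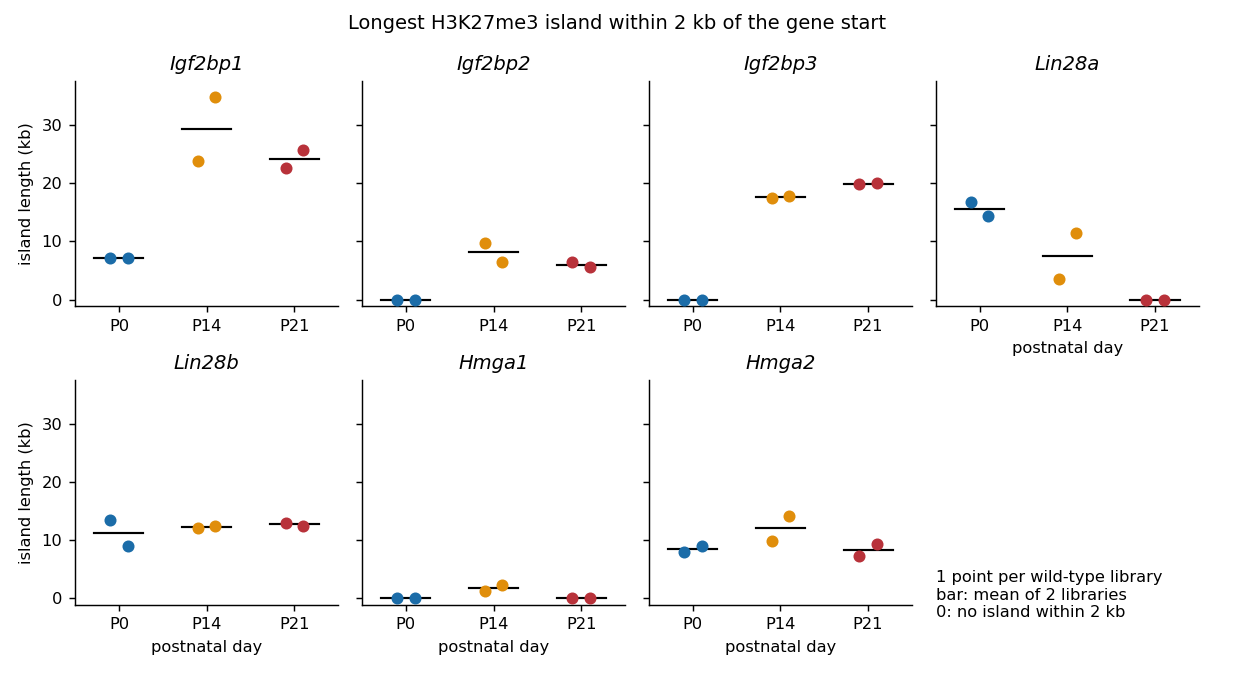
Length (kb, linear axis) of the longest H3K27me3 island within 2 kb of each gene start in wild-type libraries by postnatal day, all with the same antibody. Points are libraries and bars are means of 2 libraries. Igf2bp1, Igf2bp2 and Igf2bp3 have longer islands at P14 and P21 than at P0, Lin28a falls to 0 at P21, and Lin28b and Hmga2 have islands at all stages.

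The marks combined as follows. At P0 Igf2bp1 and Hmga2 carried H3K4me3, H3K27Ac and H3K27me3 together (8.74% of placed starts), Lin28a and Lin28b carried H3K4me3 and H3K27me3 without H3K27Ac (17.3% of placed starts carried those 2 marks, with or without H3K27Ac), and Igf2bp2, Igf2bp3 and Hmga1 carried H3K4me3 and H3K27Ac without H3K27me3 (36.7%). At P21 Igf2bp2, Igf2bp3 and Hmga2 carried H3K4me3 and H3K27me3 in both libraries (13.5% of placed starts), and none of the 7 carried all 3 marks in every library (1.59%). Lin28a and Hmga1 carried H3K4me3 and H3K27Ac without H3K27me3 at that stage. The start of Lin28b had H3K27me3 alone. Igf2bp1 had H3K27me3 in both libraries and an H3K4me3 peak in replicate 1.

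Igf2bp1 and Lin28b had a second H3K4me3 site, which was chosen after the peaks were seen and is described without a test. The gene table places the upstream end of Lin28b 16.1 kb before the listed start. At this upstream end the H3K4me3 height was 41.4 and 36.4 at P0, 29.2 and 36.8 at P14, and 53.3 and 18.7 at P21. The peak (on mm9, chr10:45205045-45206936 in the first P0 library) was present in every library, in contrast to that at the listed start. The upstream end carried an H3K27me3 island in every library, of 11400 and 7400 bp at P0 and 12800 and 7400 bp at P21. Its H3K27Ac height was 4.70 and 4.49 at P0, 0 and 3.88 at P14, and 0 and 0 at P21.

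In Igf2bp1 a second site lay inside the gene, 14.7 kb downstream of the start. The H3K4me3 height there was 11.1 and 19.3 at P0, 15.1 and 10.7 at P14, and 8.73 and 7.13 at P21. At P0 this was below the height at the start, and at P14 and P21 above it in each library. Its H3K27Ac height was 8.73 and 10.9 at P0, 0 and 5.39 at P14, and 0 and 4.73 at P21. No island covered this site at P0, and islands did in all 4 later libraries. In replicate 2 at P14 the same island of 34800 bp reached over the start and this site.

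**Figure D4:**
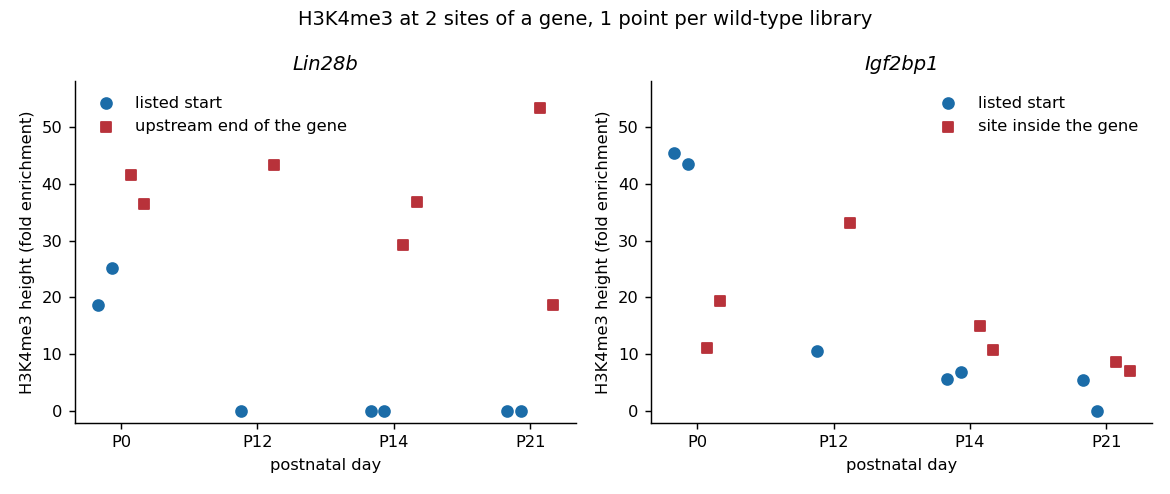
H3K4me3 height (fold enrichment as deposited, not scaled between libraries, linear axis) at the listed start (circles) and at a second site (squares) of Lin28b and Igf2bp1 by postnatal day. Each point is a wild-type library. At Lin28b the upstream end keeps a peak of at least 18.7 in all libraries while the listed start is at 0 after P0, and at Igf2bp1 the site inside the gene lies above the start from P12 on.

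Brg1 at P0 was found at 6 of the 7 starts, Lin28b being the exception, against 55.3% of all placed starts. The Brg1 height was 18.3 at Hmga1, 12.7 at Igf2bp1, 11.8 at Igf2bp2, 11.5 at Igf2bp3, 8.13 at Hmga2 and 6.19 at Lin28a. Hmga1 stood above 99.9% of the starts with a Brg1 peak, and the 3 Igf2bp genes above 97.3%, 96.0% and 95.4%. Hmga2 was above 79.2% and Lin28a above 54.9%. With 1 Brg1 library, these heights have no replicate error.

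Within each gene and 20 kb on each side there were 37 Brg1 peaks in all, 10 at Hmga1, 10 at Hmga2, 6 at Igf2bp3, 4 at Igf2bp1, 3 at Lin28a, 2 at Igf2bp2 and 2 at Lin28b. The median over all placed genes was 2. Per 100 kb searched, Hmga1 had 21.2 peaks and Hmga2, a longer gene, had 6.44, against a median of 2.22. With 5 kb on each side, 5 peaks remained at Hmga1 (29.2 per 100 kb, against a median of 2.43) and 10 at Hmga2. Hmga1 is short, so most of its search lay in flanking sequence. An H3K27Ac region there, 9 kb downstream of its start, overlapped Brg1 and lay near the start of another gene. The peak at the Hmga1 start was 5793 bp long (mm9, chr17:27690998-27696790), and that at the Igf2bp1 start was 4698 bp long (mm9, chr11:95864560-95869257). At Hmga2, 9 of the 10 peaks lay inside the gene, away from the start, with heights between 2.83 and 4.50. Both Brg1 peaks of Lin28b were at its upstream end, with heights of 4.50 and 4.22. At Igf2bp1 the site inside the gene had a Brg1 peak of 10.4.

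H3K27Ac was also read in merged peak regions inside the genes and 20 kb on each side. The 7 genes held 46 such regions, of which 19 (41.3%) overlapped a Brg1 peak, against 41.2% of all 64281 regions. Of the 46, 27 had a peak in at least 2 libraries and were tested. At P21 limma called 2 of them higher and 4 lower than P0, with 10.4% of all 33340 tested regions called (7.94% higher and 2.46% lower). At P14 it called 0 of 33340 regions (0%), with 5337 at an unadjusted p under 0.05.

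The 2 higher regions lay inside Igf2bp2 and Igf2bp3 and had no peak at P0. In Igf2bp2 the region 31964 bp downstream of the start (mm9, chr16:22130682-22132138) had heights of 0 and 0 at P0, 3.31 and 10.1 at P14, and 7.39 and 9.90 at P21 (limma adjusted p = 0.0477). In Igf2bp3 the region 68880 bp downstream of the start (mm9, chr6:49094702-49096746) had heights of 0 and 0 at P0, 5.41 and 7.92 at P14, and 6.55 and 7.77 at P21 (limma adjusted p = 0.0477). Neither overlapped a Brg1 peak of P0. Both entered the test only through later peaks, so they had to differ.

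The 4 lower regions all overlapped Brg1 peaks. All 4 had H3K27Ac at P0, the only stage at which Brg1 was read. The Brg1 share among all regions called lower, or all regions with H3K27Ac at P0, was not counted. A link between Brg1 and the loss was therefore not tested. The start regions of Igf2bp1 and Hmga2 and a region 3.1 kb upstream of Igf2bp3 with heights of 4.51 and 9.38 at P0, had peaks at P0 only and so had to differ. The remaining one lay 7.2 kb upstream of Hmga1 and had heights of 6.87 and 8.52 at P0, 0 and 3.35 at P14, and 0 and 0 at P21 (limma adjusted p = 0.0484). Its P14 peak alone would not have passed the filter, so this region too had to differ at P21. Adjusted p-values of all 6 called regions were between 0.0477 and 0.0486. When either P0 library or either P21 library was left out, 0 regions were called in the whole fit.

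At P12 the marks at the starts were compared between Brg1-deficient and wild-type retinae. None of the 7 starts differed by 2-fold or more. The fold was taken after adding a pseudocount (8.27 for H3K4me3 and 4.16 for H3K27Ac), which limits it at low starts. For H3K4me3 at Igf2bp1 and Lin28a, only a nearly full loss could have reached 2-fold. For H3K27Ac at Igf2bp3, even a full loss could not. A start at 0 in wild type could show no loss. After scaling, the H3K4me3 height was 8.62 in wild-type and 7.996 in Brg1-deficient retinae at Igf2bp1, 65.1 and 76.3 at Igf2bp2, and 43.2 and 39.3 at Igf2bp3. It was 9.34 and 7.67 at Lin28a, 68.0 and 80.9 at Hmga1, 30.4 and 28.5 at Hmga2, and 0 in both at Lin28b. Log2 ratios on the pseudocount scale lay between -0.14 and 0.23. Over all starts, 0.838% were at least 2-fold higher and 0.611% at least 2-fold lower in the Brg1-deficient library.

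The scaled H3K27Ac height at Hmga1 was 28.5 in wild-type and 25.4 and 25.6 in Brg1-deficient retinae. At Igf2bp2 it was 8.89 against 8.45 and 8.81, at Lin28a 8.09 against 7.43 and 7.43, and at Igf2bp3 3.68 against 4.78 and 4.11. The starts of Igf2bp1, Lin28b and Hmga2 had no peak in any P12 library. Over all starts, 1.5% were at least 2-fold higher and 0.82% at least 2-fold lower in both Brg1-deficient libraries. With 1 wild-type library per mark the difference has no replicate check. The mosaic Cre leaves cells with Brg1 in the tissue, although mice with small eyes and wider Cre expression were preferred.

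**Figure D5:**
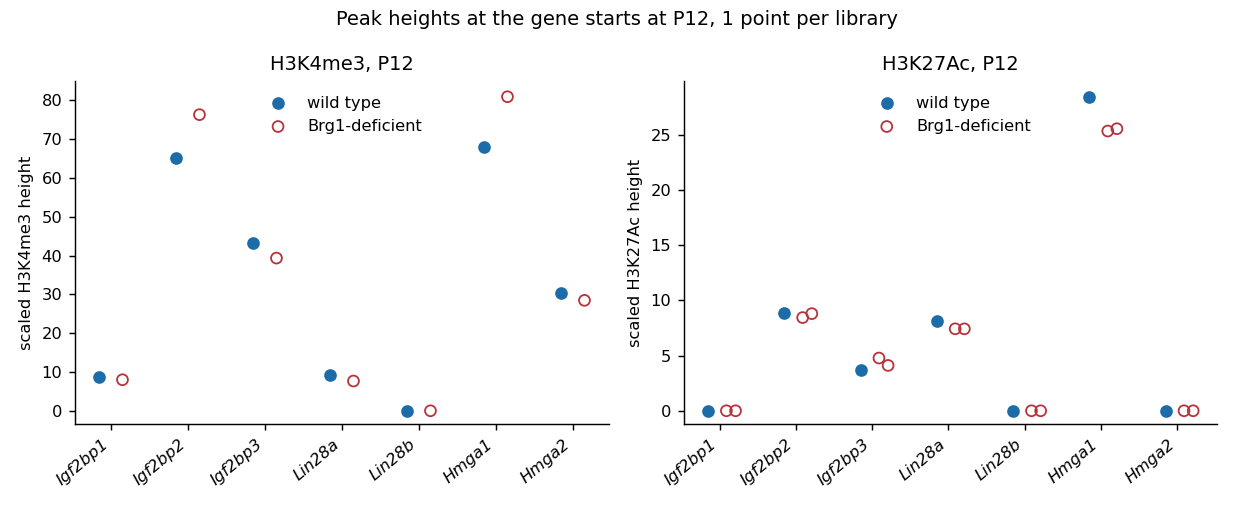
Scaled peak height (linear axes) within 2 kb of each gene start at P12 for H3K4me3 (left) and H3K27Ac (right). Filled points are the wild-type library and open points the Brg1-deficient libraries, with 2 for H3K27Ac. No gene start differs by 2-fold or more, and the widest gaps in H3K4me3 height are at Igf2bp2 (65.1 and 76.3) and Hmga1 (68.0 and 80.9).

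The second sites were read at P12 in the same way. The scaled H3K4me3 height at the upstream end of Lin28b was 35.1 in wild-type and 21.5 in Brg1-deficient retinae, and that inside Igf2bp1 was 26.9 and 24.5. The scaled H3K27Ac height inside Igf2bp1 was 0 in wild-type and 3.56 and 4.66 in Brg1-deficient retinae. At the upstream end of Lin28b it was 4.59 against 3.29 and 5.36. With 1 wild-type library, these differences were not tested. H3K27me3 islands at the Igf2bp1 start were 23600 and 20400 bp long in wild-type libraries and 21400 bp in the Brg1-deficient library. At Igf2bp3 the wild-type libraries differed from each other, with 19600 and 6200 bp, and the Brg1-deficient library had 3200 bp. At Hmga2 the lengths were 9000 and 7200 bp in wild-type and 8600 bp in Brg1-deficient retinae. For Lin28a they were 3000 and 1000 bp against 2400 bp, and for Igf2bp2 6400 and 7000 bp against 4600 bp. Lin28b had 10600 and 4600 bp against 7600 bp, and Hmga1 had 1400 and 1000 bp against 1200 bp.

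Of 49 genes listed for the Lin28 and let-7 axis, the let-7 targets of early development and the Igf2 axis, 33 could be placed. In the H3K4me3 test 1 of 33 was higher at P14 (0.54% of all starts tested) and 1 of 33 lower at P21 (5.51% of all starts tested), and in the H3K27Ac test 0 of 32 were called at either stage (0% of all starts tested). The 2 calls, named after their values were seen, were Nr6a1, a nuclear receptor of early embryos and a let-7 target, and Sox2, a transcription factor of progenitor cells. Nr6a1 had H3K4me3 heights of 22.7 and 26.2 at P0, 58.3 and 74.0 at P14, and 40.4 and 23.9 at P21 (limma adjusted p = 0.0252 at P14). Sox2 had 35.6 and 63.9 at P0, 13.9 and 23.6 at P14, and 15.8 and 9.61 at P21 (limma adjusted p = 0.0139 at P21). The median H3K4me3 difference of the 33 genes was -0.04 at P14 and -0.15 at P21 on the log2 scale, against -0.03 and -0.08 over all starts tested. For H3K27Ac it was -0.34 and -0.38, against -0.16 and -0.24 over all starts tested.

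H3K27me3 islands lay at the starts of 6 of these 33 genes in both P0 libraries and of 7 in both P21 libraries, which is 18.2% and 21.2% against 20.8% of all placed starts at both stages. The 3 with one at P21 but not in both P0 libraries were Cdk6, Dusp6 and Irs1, a cell cycle kinase, a MAP kinase phosphatase and an adaptor of the insulin receptor. The 2 with one at P0 but not in both P21 libraries were Nr6a1 and Prtg, which encodes a cell surface protein of the early neural tube. Over all placed starts, 5.76% had an island in both P21 but not both P0 libraries and 5.81% the reverse. These genes were named after their islands were seen.

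By Pearson correlation over the 12 wild-type H3K4me3 and H3K27Ac libraries of P0, P14 and P21, with each gene centred within each mark, the 5 genes most like Igf2bp1 among 9230 were Hydin, Akr1b10, Vax1, Pclaf and Dapl1. Their r lay between 0.98 and 0.99. The H3K4me3 loss of Igf2bp1 that set this profile is the value it was chosen by, so the likeness is a description only. All genes share the same 12 libraries, and these genes were chosen for their likeness. At Pclaf, which encodes a PCNA-binding protein of dividing cells, the H3K4me3 height was 42.4 and 35.0 at P0, 4.50 and 5.19 at P14, and 6.06 and 2.62 at P21. Its H3K27Ac height was 8.78 and 8.91 at P0 and 0 in all 4 later libraries. Hmga2, with H3K27Ac peaks only at P0 like Igf2bp1, had an r of 0.98, and Igf2bp3 had 0.79. Igf2bp2 had 0.47, Hmga1 -0.46 and Lin28a -0.66.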

How the data were processed

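ChIP-seq libraries of 27 samples were used. The other samples of the 35 in the series were input libraries, which were not used here. Per the labels, the processing notes name mm9, CASAVA, BWA 0.5.9-r26, Picard 1.65, SAMtools, R 2.14.0, MACS2 2.0.9, bedtools 2.17.0 and SICER 1.1, without their order or settings. The authors deposited 18 peak lists, called per library, which give the fold enrichment (a ratio), the −log10 p-value and −log10 q-value and the summit of each peak. The fold enrichment depends on the depth and background of its own library. The authors deposited 9 lists of H3K27me3 islands with a whole-number score per island whose meaning is not given in the sources used here, so island lengths were used instead. Read depth is not known from these lists.

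GRCm38 gene starts from RefSeq were shifted to mm9 by a local offset, chosen so that most starts of coding genes within 5 Mb lay within 1 kb of a wild-type P0 H3K4me3 peak. Offsets that did nearly as well lay within a median of 1200 bp on either side, so distances to starts are estimates of that precision, and no peak was assigned to an exon or intron. At Igf2bp1 the offset put 118 of 202 starts near a peak. Heights were scaled to a common median over starts (or regions) with a peak in all libraries and compared with limma 3.58.1 in R 4.3.3, with the 6 wild-type libraries of a mark in 1 fit, on log2(scaled height + pseudocount). As pseudocount, the 5th percentile of scaled heights was used (7.44 for H3K4me3 and 3.25 for H3K27Ac at starts, 2.08 for regions). Starts or regions needed a peak in at least 2 of the 6 libraries, and calls were made at a Benjamini-Hochberg adjusted p of 0.05 over all of them. For low peaks this scale gives too small a change. P12 libraries were compared without a test, with a fold of at least 2 in all Brg1-deficient libraries as the limit. Placing, overlaps and fits were tested on simulated data. Python 3.11.15 and pandas 2.3.3 were used.

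The genes, lists and tests were chosen with earlier results of these data known. By the rule for named genes, the 7 genes were named in every comparison, with the 5 genes most like Igf2bp1 and up to 3 called pathway genes in each direction of H3K27Ac at P21, of which there were none. The P14 libraries of H3K4me3 carry replicate numbers 2 and 3 in their titles, and the wild-type P12 library is titled replicate 2. Titles were followed. Alternatives were another pseudocount, filter, window or scaling, the strongest 50% of the peaks, 2 stages only, a replicate block and leaving out each library in turn.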

Additional observations from a re-analysis of the deposited data

How the results depend on the processing

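The counts of genes with H3K27me3 islands (4, 7 and 5) moved only to 5 at P0 with a 5 kb window. At P12, 0 genes passed 2-fold at the start under every alternative. Starts called for H3K27Ac rose from 0 to 39 at P14 and 57 at P21 when a peak was needed in every library. For H3K4me3 at P14, 180 calls became 318 with a pseudocount of 1, 12 without scaling, 396 with the strongest 50% of peaks, 116 with 2 stages only and 0 to 116 with 1 library left out. At P21, 648 calls became 45, 295 and 0 to 661 without scaling, with the strongest 50% of peaks and with 1 library left out. Without either P0 library both counts were 0, and without a P21 library the P21 count was 131 (replicate 1) or 73 (replicate 2). For H3K27Ac regions at P14, 0 calls became 2489 with a pseudocount of 1 and 105 with a peak in every library. At P21, 3465 became 234 with a peak in every library, 0 without scaling and 0 to 4501 with 1 library left out. The strongest 50% of Brg1 peaks left 21 of 37 at the 7 genes. When 1 library of a stage was left out, the remaining one was assumed to vary like the others. Of the other values, for single genes, 336 kept their direction and their side of the threshold, 19 lost a call, 3 gained one, 6 moved and 6 reversed. The cause of these changes was not tested.

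Reversed differences were all small and uncalled. For Hmga1 H3K27Ac at P21, 0.24 became -0.17 without scaling, -0.0071 without P0 replicate 2 and -0.20 without P21 replicate 1 (range -0.20 to 0.68). For Hmga1 H3K4me3 at P21, 0.16 became -0.048 without P21 replicate 2 (range -0.048 to 0.36). For Igf2bp2 H3K4me3, 0.16 at P14 became -0.28 without P0 replicate 2 (range -0.28 to 0.60), and -0.32 at P21 became 0.12 without P0 replicate 1 (range -0.76 to 0.12). The Igf2bp3 H3K4me3 difference at P21 was called with a peak required in every library (limma adjusted p = 0.0446) and with a 5 kb window (0.0355).

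With the replicate number as a block, H3K4me3 calls at P21 rose to 1383, H3K4me3 calls at P14 rose to 420, H3K27Ac regions called at P21 rose to 6269, and Igf2bp3 H3K4me3 at P21 was called (limma adjusted p = 0.00894). The labels give only the number. Deviations of same-numbered H3K27Ac libraries correlated at starts with r = 0.14 between P0 and P14, 0.054 between P0 and P21 and 0.49 between P14 and P21, and those of H3K4me3 with 0.13 between P0 and P21. At P14 the block, an alternative chosen after seeing the data, used all 6 libraries although P0 and P14 share only replicate 2 (r = 0.014), and with it Hmga2 was not called (limma adjusted p = 0.0916). In the list names the P14 libraries are numbered 1 and 2, and that numbering was not fitted.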
